A study of Homo sapiens with 12 samples.

Results

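IFI44 and IFI44L, neighbouring human genes induced by interferon, were followed across 3 cancer cell lines and 4 transfections. The members are all probe sets (sets of short array probes for a transcript) whose annotation names only IFI44 or only IFI44L, 3 of the 54675 probe sets on the array. The first IFI44 probe set is 214453_s_at, the second is 214059_at, and IFI44L has 204439_at. The genes were chosen because IFI44 was lower by nearly the same amount in each line after G-quadruplex (G4) oligonucleotides, so that difference is described here and not tested. Each of PC-3 (prostate cancer), HBC4 (breast cancer) and MKN74 (gastric cancer) received the RNA oligonucleotide (uuaggg)4, the DNA oligonucleotide AS1411, the RNA oligonucleotide (uuaccc)4, or Lipofectamine RNAiMAX alone, the reagent that all 12 cultures were given. The first 2 form G4 structures, in which guanines stack in planar quartets, and the other 2 treatments are the controls. About 100 pmol (1.0 ug) of oligonucleotide went to 300000 cells in a reverse transfection, and the cells then grew for 72 h in plates to which they adhere poorly. One array was hybridised per line and treatment, so no treatment was repeated within a line. The 3 arrays of a treatment come from 3 different lines, and separate repeat cultures are not named.

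Interferons are secreted proteins that bind cell-surface receptors, and kinases on those receptors activate transcription factors that bind the interferon-stimulated response element (ISRE) in the promoters of many genes. IFI44 and IFI44L are paralogues, lie next to each other on chromosome 1 and are among the genes most readily induced in this way. Both proteins are reported to restrain some viruses and to bind the co-chaperone FKBP5, through which they are reported to dampen signalling by the kinases of IRF3 and NF-kB. Because they respond to interferon so reliably, their transcripts are widely used as readouts of an interferon response.

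The promoters of the 2 genes are shown because their transcripts moved together. RefSeq (GRCh38.p14) places them at chr1:78620198-78620497 for IFI44L and chr1:78649539-78649838 for IFI44, both on the plus strand, from 250 bases before to 50 bases after the annotated start. Capitals mark each match, on either strand, to the ISRE core, which is TTTC, NN and TTTC in a row:
IFI44L: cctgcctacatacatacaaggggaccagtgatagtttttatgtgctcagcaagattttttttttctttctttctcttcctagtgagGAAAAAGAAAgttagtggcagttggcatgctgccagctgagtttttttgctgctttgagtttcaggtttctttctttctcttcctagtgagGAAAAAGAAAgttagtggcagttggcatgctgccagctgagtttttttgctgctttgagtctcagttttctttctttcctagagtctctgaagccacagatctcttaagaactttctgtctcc
IFI44: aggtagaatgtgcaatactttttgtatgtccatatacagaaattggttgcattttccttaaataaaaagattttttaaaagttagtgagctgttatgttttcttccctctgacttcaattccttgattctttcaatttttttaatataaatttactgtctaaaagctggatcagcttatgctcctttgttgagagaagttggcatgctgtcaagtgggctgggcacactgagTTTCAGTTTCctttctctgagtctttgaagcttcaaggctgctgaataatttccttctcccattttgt
The IFI44 match begins 18 bases before this start, on the plus strand, and 60 bases before a second annotated start. The IFI44L promoter has 2 matches on the minus strand, beginning 164 and 73 bases before the start. They lie in a stretch of 85 bases that occurs 2 times in that promoter without a mismatch. The longest stretch the 2 promoters share is 13 bases, agttggcatgctg. Of all 35116 promoters of this length 3.57% held the ISRE core. Among the promoters of the other interferon-stimulated genes listed here it was 54.7% (41 of 75 promoters). These 75 promoters belong to 57 genes, since a gene can have several annotated starts, and 37 of the genes held the core in any promoter. The core TTCNNNGAA, bound by STAT dimers and searched on both strands, had no match in either member's promoter and one in 7.66% of all promoters. The overlap of the 2 motifs was not examined.

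The deposited values are log2 expression values centred so that each probe set has a median of 0 over the 12 arrays. They show how arrays differ for a probe set, not how abundant a transcript was, and levels of different probe sets cannot be compared. Arrays separated first by line, with Pearson's r of at least 0.856 between arrays of the same line and at most -0.171 between arrays of different lines, a contrast to which the centring adds. Of the markers of tissue origin, 3 of 7 for prostate were highest in PC-3, among them HOXB13, by 4.86 on the log2 scale over the next line, while another 3, the kallikreins KLK2, KLK3 and KLK4, were highest in HBC4, by at most 0.26. Of 10 breast markers 8 were highest in HBC4, among them the oestrogen receptor ESR1, by 3.18. Of 11 gastric and intestinal-type markers 3 were highest in MKN74, among them CDX2, by 1.52, while HBC4 and PC-3 had 4 each. Those of PC-3 had the largest margins: the trefoil peptides TFF1 (8.24), TFF2 (8.26) and TFF3 (5.70), and MUC5AC (2.27). In bulk RNA, fewer expressing cells and less RNA per cell cannot be told apart.

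IFI44 stood low on every G4 array of a line and high on both of its control arrays. By the first probe set, PC-3 cells had centred log2 values of -0.13 with (uuaggg)4 and -0.55 with AS1411, against 2.79 with (uuaccc)4 and 2.97 with the reagent alone. HBC4 cells had 0.05 with (uuaggg)4 and -0.60 with AS1411, against 3.26 with (uuaccc)4 and 2.97 with the reagent alone. MKN74 cells had -2.34 with (uuaggg)4 and -2.99 with AS1411, against 0.45 with (uuaccc)4 and -0.05 with the reagent alone. Within each line the G4 and control arrays did not overlap. Across lines they did: the reagent array of MKN74 lay between the (uuaggg)4 arrays of HBC4 and PC-3, while its (uuaccc)4 array stood above every G4 array.

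The second IFI44 probe set gave the same grouping. In PC-3 its centred log2 values were -0.48 with (uuaggg)4 and -0.50 with AS1411, against 2.70 with (uuaccc)4 and 2.90 with the reagent alone. In HBC4 they were -0.70 with (uuaggg)4 and -0.81 with AS1411, against 2.72 with (uuaccc)4 and 2.76 with the reagent alone. In MKN74 they were -1.42 with (uuaggg)4 and -1.89 with AS1411, against 0.78 with (uuaccc)4 and 0.48 with the reagent alone. Here all 6 control arrays stood above all 6 G4 arrays, so the groups did not overlap even across lines.

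IFI44L was likewise low with both G4 oligonucleotides. PC-3 had centred log2 values of -0.01 with (uuaggg)4 and 0.03 with AS1411, against 2.31 with (uuaccc)4 and 2.61 with the reagent alone. HBC4 had -0.51 with (uuaggg)4 and -1.64 with AS1411, against 2.94 with (uuaccc)4 and 2.71 with the reagent alone. MKN74 had -2.59 with (uuaggg)4 and -2.87 with AS1411, against -0.18 with (uuaccc)4 and 0.01 with the reagent alone. The G4 and control arrays were again separate within each line. The PC-3 array with AS1411 stood above both control arrays of MKN74, so across lines they overlapped. Both G4 arrays lying below both control arrays in each of the 3 lines was seen for 3 of the 3 member probe sets and for 2.98% of all 54613 tested. The comparison is the one IFI44 was chosen on, so nothing is read from that count.

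**Figure D1:**
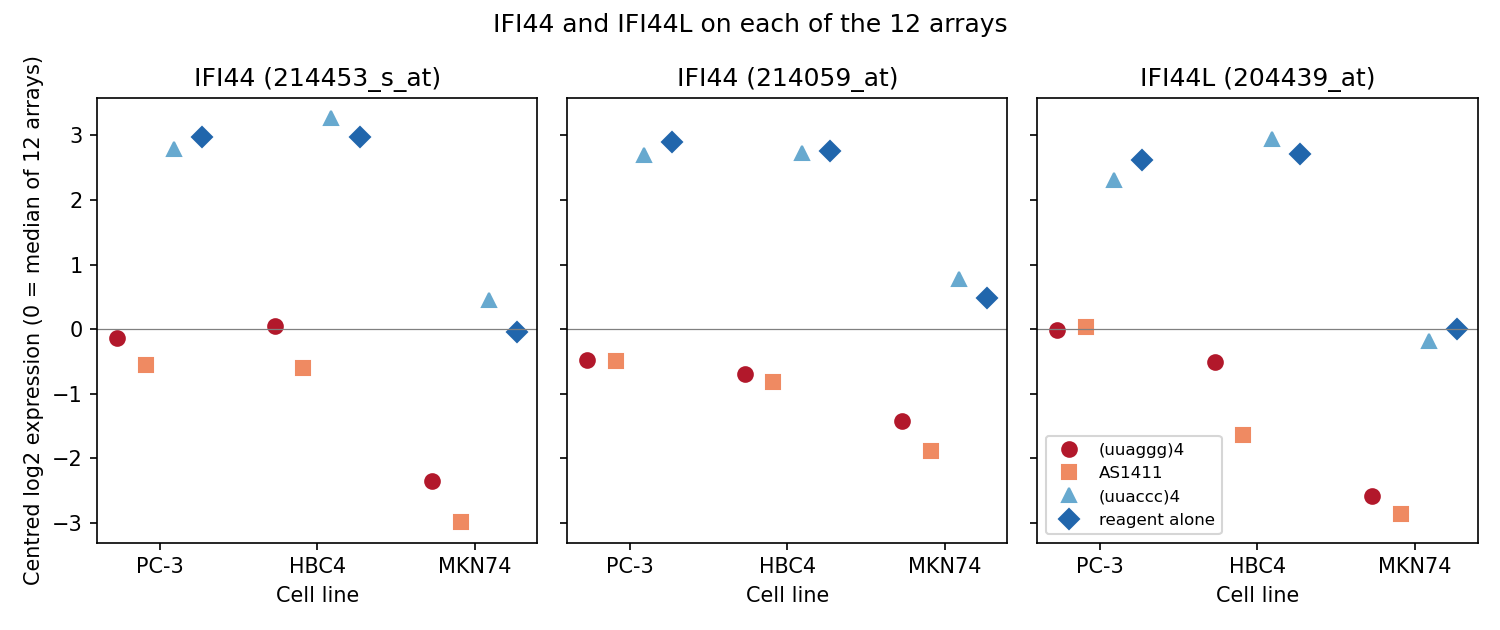
Centred log2 expression (vertical axis, 0 is the probe set's median over 12 arrays) of the 3 probe sets in each cell line (horizontal axis), 1 point per array. In each line both G4 arrays (circles and squares) lie below both control arrays (triangles and diamonds), and at each treatment MKN74 is lower than the other lines.

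The mean difference was close to -3 on the log2 scale by each of the 3 probe sets, and its spread over lines was smallest by the first IFI44 probe set. On the log2 scale the mean of the G4 arrays minus that of the control arrays was -3.16 ± 0.27 (SD over n = 3 lines, here and below) for IFI44 by its first probe set, or 8.94-fold lower. PC-3 had -3.22, HBC4 had -3.40 and MKN74 had -2.87. By the second IFI44 probe set the difference was -3.02 ± 0.64, or 8.12-fold lower, while PC-3 had -3.28, HBC4 had -3.49 and MKN74 had -2.29. For IFI44L it was -3.00 ± 0.79, or 7.99-fold lower, while PC-3 had -2.45, HBC4 had -3.90 and MKN74 had -2.64. HBC4 had the largest difference on each of the 3 probe sets. The line with the smallest was MKN74 by both IFI44 probe sets and PC-3 for IFI44L. The 2 IFI44 probe sets differed more from each other in this spread than the second differed from IFI44L.

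Evenness was set beside that of other interferon-stimulated genes as the SD of the 3 line differences divided by the size of their mean. Since IFI44 was chosen for its evenness, its place in this order restates the choice and is given as a description. Among 56 probe sets lower by 1 log2 unit or more (the 3 members and 53 listed genes), the first IFI44 probe set came first at 0.0854. IFIT3, which binds viral RNA together with IFIT1, followed at 0.116 (-2.36 ± 0.27), and UBE2L6, the conjugating enzyme of ISG15, at 0.129 (-1.58 ± 0.20). The second IFI44 probe set had rank 4 at 0.213, and PARP14 (0.223) and the nuclear body protein SP100 (0.224) were close behind it, as was the helicase DDX60 (0.232). Each listed gene entered by 1 probe set, the one most variable between lines, while the members entered by all of theirs. Other probe sets of a listed gene can differ. The 2 probe sets of PARP14 gave -1.28 and 0.07, and the 6 of SP100 ranged from -1.04 to -0.50. Those of IFIT3 were closer, at -2.36 and -2.18. IFI44L had rank 10 at 0.262. The order also held genes lower by about as much with a wider spread, such as CMPK2, a mitochondrial nucleotide kinase (0.373, -3.02 ± 1.13), and XAF1, an antagonist of the apoptosis inhibitor XIAP (0.383, -3.13 ± 1.20).

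**Figure D2:**
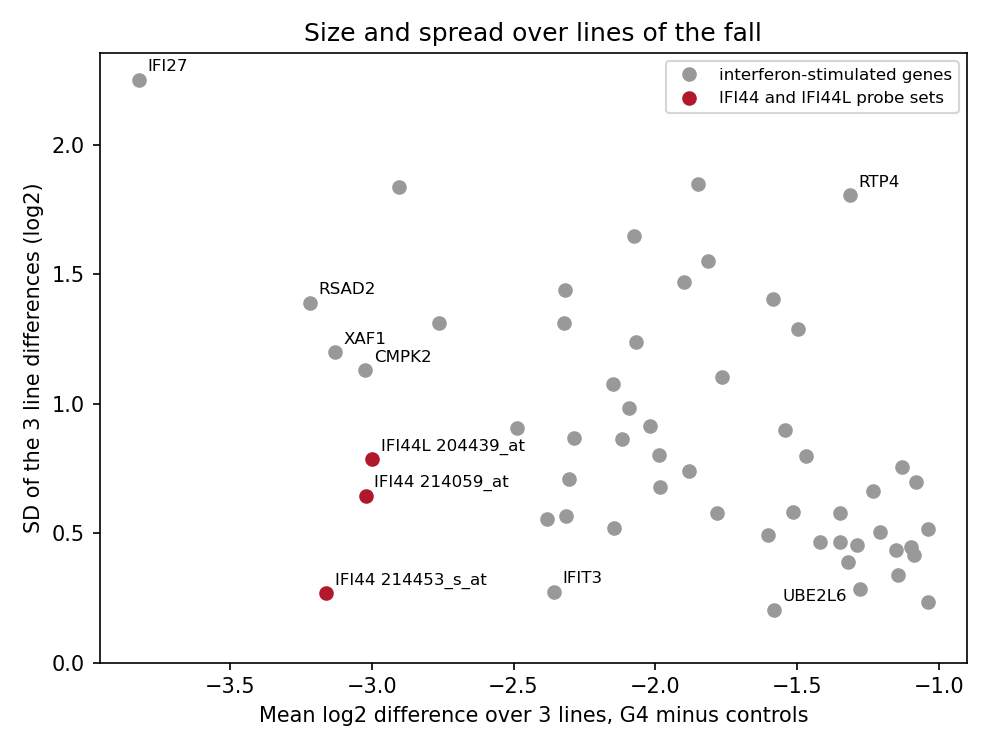
Mean log2 difference, G4 minus controls, over 3 lines (horizontal axis) against the SD of the 3 line differences (vertical axis) for the 3 member probe sets (red) and 53 interferon-stimulated genes (grey), 1 point each. IFI44's first probe set has a mean of -3.16 and an SD of 0.27, while IFI27 at the upper left has -3.82 and 2.25.

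Each G4 oligonucleotide was set against a control of its own, with no shared arrays between these 2 comparisons. For (uuaggg)4 against (uuaccc)4, which are both RNA, the log2 difference was -2.97 ± 0.22 for IFI44 by its first probe set, -2.93 ± 0.64 by the second and -2.73 ± 0.63 for IFI44L. AS1411 had the reagent alone as its control, and no control DNA oligonucleotide is among the treatments. There the values were -3.35 ± 0.35 for IFI44 by its first probe set, -3.11 ± 0.65 by the second and -3.27 ± 0.95 for IFI44L. Both comparisons are parts of the one the genes were chosen on and are given without a test. The farthest from 0 was IFI44L with AS1411 in HBC4, -4.35, and the nearest to 0 was IFI44 (second probe set) with (uuaggg)4 in MKN74, -2.21.

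**Figure D3:**
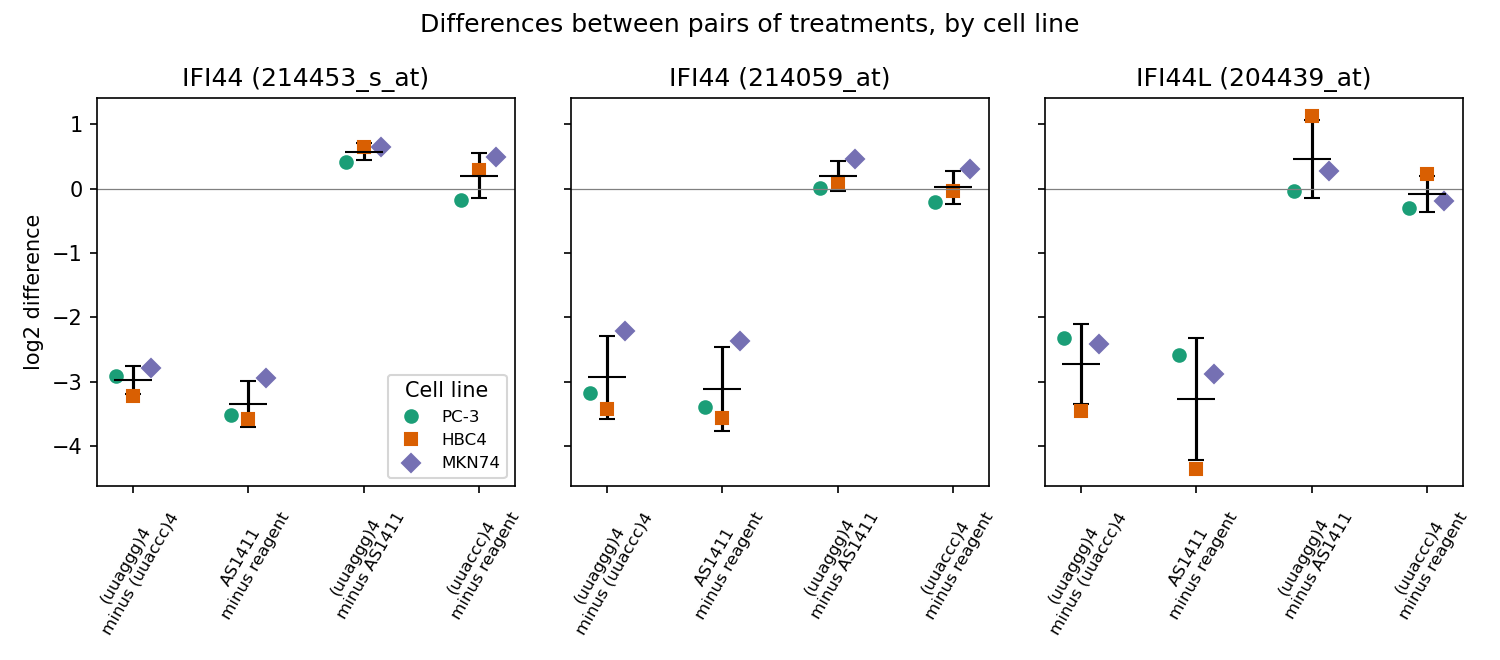
log2 differences (vertical axis) of 4 pairs of treatments (horizontal axis) for each probe set, with 1 point per cell line, the mean as a dash and the SD over 3 lines as the bar. G4 minus control pairs lie between -4.35 and -2.21, and pairs within a class between -0.30 and 1.14.

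Whether the 2 G4 oligonucleotides differed from each other was open to a test, because the size of that difference does not enter the choice of the genes. The choice does bear on the error of the fit, which includes the spread over lines by which IFI44 was chosen. Intervals and p-values of the first IFI44 probe set, here and in the comparisons below, may thus be too small. Its SE here was 0.15, against 0.25 for the second IFI44 probe set and 0.32 for IFI44L. IFI44 by its first probe set was higher with (uuaggg)4 than with AS1411 in 3 of 3 lines, by 0.42 (PC-3), 0.65 (HBC4) and 0.65 (MKN74) on the log2 scale. The mean difference was 0.57 ± 0.13, or 1.49-fold, with a 95% interval of the fit from 0.24 to 0.90. It did not pass (limma adjusted p = 0.983 over 54613 probe sets, threshold 0.05; unadjusted p = 0.00263 from the same limma fit). Of all probe sets 0% passed, and 4.82% had an unadjusted p under 0.05. Of all probe sets 0.172% differed by as much or more in either direction. By the second IFI44 probe set the difference was 0.20 ± 0.24 (95% interval -0.34 to 0.74, limma adjusted p = 1.00) and for IFI44L 0.46 ± 0.61 (95% interval -0.24 to 1.16, limma adjusted p = 1.00). For IFI44L the mean rests on HBC4, where it was 1.14, against -0.04 in PC-3 and 0.28 in MKN74. Without the AS1411 array of HBC4 it was -0.07. With quantile normalization the first IFI44 probe set had 0.50 in this comparison, with an unadjusted p = 0.0621 in limma. Its small unadjusted p-value thus depended on the normalization.

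The comparison of the 2 controls, whose size also did not enter the choice, asks whether transfecting the control RNA changed the genes. For (uuaccc)4 minus the reagent alone the log2 difference was 0.20 ± 0.35 for IFI44 by its first probe set (95% interval -0.13 to 0.53), 0.02 ± 0.26 by the second (-0.52 to 0.56) and -0.09 ± 0.28 for IFI44L (-0.79 to 0.62). None of the 3 passed (limma adjusted p = 1.00 each, unadjusted p = 0.204, 0.928 and 0.796). Of all 54613 probe sets 0% passed and 3.12% had an unadjusted p under 0.05. In PC-3 all 3 were negative, at -0.18, -0.20 and -0.30, and the SD over lines exceeded the mean on each probe set. The intervals leave room for a change of up to 1.72-fold for IFI44L and 1.48-fold for IFI44 by its second probe set.

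The interferon-stimulated list can be read beside these values. In (uuaggg)4 minus AS1411 the median of 72 listed genes, members left out, was 0.22 on the log2 scale, against 0.00 for all 19775 genes, and 67 of 72 (93.1%) were above 0, against 50.1% of all genes. Of the list 0 passed (limma) and 1 had an unadjusted p under 0.05, as did 4.52% of all genes. That gene was IFIT3, at 0.36 ± 0.12. In (uuaccc)4 minus the reagent the list's median was -0.05, against -0.01 for all genes, and 17 of 72 (23.6%) were above 0, against 46.6% of all genes. Again 0 passed (limma) and 1 had an unadjusted p under 0.05, as did 2.87% of all genes. That gene was the RNA-binding regulator DHX58, at -0.29 ± 0.17. Listed genes share arrays and are not independent of one another.

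**Figure D4:**
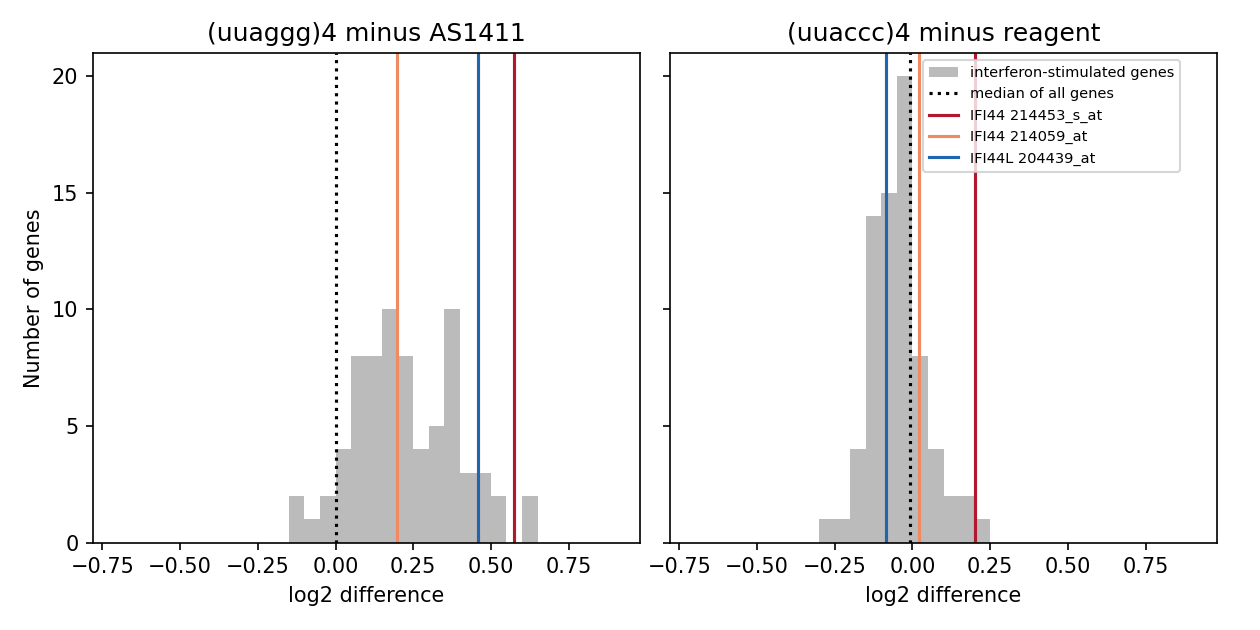
Number of interferon-stimulated genes (vertical axis, 72 in all, grey bars) by log2 difference (horizontal axis) for (uuaggg)4 minus AS1411 (left) and (uuaccc)4 minus reagent alone (right), with coloured lines for the member probe sets and a dotted line for the median of all genes. On the left the list's median is 0.22 and the members lie at 0.20, 0.46 and 0.57. On the right the members lie between -0.09 and 0.20.

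At every treatment PC-3 and HBC4 had higher values of both genes than MKN74. Line differences were tested over the 4 treatments, with the same error of the fit. PC-3 was higher than MKN74 by 2.50 on the log2 scale for IFI44 by its first probe set (SE 0.13, 5.66-fold, limma adjusted p = 6.42e-09). By the second IFI44 probe set the difference was 1.67 (SE 0.21, adjusted p = 2.62e-05 in limma) and for IFI44L 2.64 (SE 0.28, 6.24-fold, adjusted p = 4.40e-06 in limma). HBC4 was higher than MKN74 by 2.65, 1.51 and 2.28 on the same probe sets (limma adjusted p = 5.41e-09, 8.02e-05 and 2.07e-05). All 3 member probe sets passed in both comparisons, but so did 52.7% of all probe sets for PC-3 minus MKN74 and 43.1% for HBC4 minus MKN74, so the passing itself says little about these genes. In size, 4.44% of all probe sets differed between PC-3 and MKN74 by as much as the first IFI44 probe set, 8.84% by as much as the second and 3.96% by as much as IFI44L.

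Between PC-3 and HBC4 no member passed, while 46.8% of all probe sets did. The log2 difference, PC-3 minus HBC4, was -0.15 for IFI44 by its first probe set (95% interval -0.44 to 0.13, limma adjusted p = 0.372), 0.16 by the second (-0.30 to 0.63, adjusted p = 0.571 in limma) and 0.36 for IFI44L (-0.25 to 0.97, adjusted p = 0.325 in limma). For IFI44L this mean joins opposite signs. The difference was 1.08 on the G4 arrays alone (adjusted p = 0.0123 in limma). It was -0.36 on the control arrays alone (adjusted p = 0.0996 in limma). Each of these smaller fits had 2 arrays per line, and the share of all probe sets passing in them is not given here. The G4 difference leaned on the AS1411 array of HBC4, at -1.64 against 0.03 in PC-3. With (uuaggg)4 the values were closer, at -0.51 in HBC4 and -0.01 in PC-3. Over all treatments the order of lines was thus PC-3 and HBC4, not separated by the test, above MKN74. On the G4 arrays PC-3 was above MKN74 by 2.32, 1.17 and 2.74 for the first and second IFI44 probe sets and IFI44L. On the control arrays it was above by 2.68, 2.17 and 2.55. The 4 arrays of a line are different treatments and not repeat cultures.

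The 3 member probe sets followed each other closely over the 12 arrays once each line's own mean was subtracted. Pearson's r was 0.990 between the IFI44 probe sets, and IFI44L had 0.977 with the first and 0.971 with the second. These are descriptions over 12 arrays that share the G4 difference. Probe sequences were not used here, so whether a probe of one gene could also bind the transcript of its paralogue was not tested. By the same measure, the genes most like IFI44 (first probe set) were IFIT3 (r = 0.998), the mitochondrial phosphatase PPM1K (0.988), SHFL, an inhibitor of ribosomal frameshifting (0.988), and RELCH, a protein of recycling endosomes (0.988). DDX60 (0.986), PARP14 (0.986), OAS1, an RNA-activated synthetase (0.986), and NHLRC3 (0.984) followed. High likeness did not require a large difference: G4 minus controls was -0.27 ± 0.02 on the log2 scale for RELCH and -0.51 ± 0.02 for NHLRC3, against -1.41 ± 0.35 for PPM1K and -1.15 ± 0.17 for SHFL. Of these 8 genes, 6 were also among the 8 most like the second IFI44 probe set.

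IFI44L had OAS1 (r = 0.992), the RNA-binding protein FMR1 (0.991) and the chemokine CCL5 (0.989) as the genes most like it. DDX60L (0.988), SHFL (0.986), IFIT3 (0.985), PPM1K (0.983) and SP100 (0.982) completed the 8, of which 4 were shared with the first IFI44 probe set. CCL5 shared the wide difference of IFI44L in HBC4, at -2.80 on the log2 scale, against -1.70 in PC-3 and -1.73 in MKN74. For FMR1 the difference was -0.28 ± 0.06.

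The other genes of the pathway are given by role, for G4 minus controls, on 1 probe set per gene. Over all 19775 genes 1.77% passed as lower and 0.829% as higher (limma, adjusted p under 0.05), and 19% had an unadjusted p under 0.05. Among 18 measured genes for the ligands, the interferons themselves, 2 fell: the type III interferons IFNL1 (-0.72 ± 0.42, limma adjusted p = 0.0197) and IFNL2 (-1.42 ± 1.13, limma adjusted p = 0.0326). IFNB1, the type I interferon of most cell types, had -0.70 ± 0.56 without passing (limma adjusted p = 0.0637). IFNA21 had 0.16 ± 0.09. The ligand list's median was -0.01, against 0.01 for all genes. IFNL1 and IFNL2 are close paralogues, and whether their probes bind both was not tested. Without PC-3, HBC4 or MKN74 the number of ligands that fell was 1, 0 or 0.

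Of 9 receptor chains and their kinases 0 passed (3 had an unadjusted p under 0.05 in limma), with a median of -0.13. IFNAR2, the signalling chain of the type I receptor, had -0.25 ± 0.04 (limma adjusted p = 0.0532), though 1 of its 3 probe sets gave 0.11. The kinase JAK2 had -0.41 ± 0.21 (limma adjusted p = 0.0926), the receptor chain IL10RB -0.21 ± 0.08 and IFNAR1 -0.13 ± 0.14. Of 8 transcription factors 3 fell: IRF7, which switches on interferon genes (-1.09 ± 0.42, limma adjusted p = 0.00134), IRF9, which brings the STAT complex to the ISRE (-0.99 ± 0.51, limma adjusted p = 0.00662), and IRF1 (-0.52 ± 0.29, limma adjusted p = 0.0157). Without PC-3 or HBC4 0 of the factors passed, and without MKN74 2 did. IRF2 had -0.26 ± 0.08 (limma adjusted p = 0.0613).

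Among the 72 interferon-stimulated genes 63 fell and 0 rose, and 9 did not pass, with a median of -1.44. The smallest p-values were those of IFIT3 (limma adjusted p = 9.59e-07), UBE2L6 (4.55e-06), DDX60 (-2.38 ± 0.55, limma adjusted p = 5.20e-05) and OAS1 (-2.31 ± 0.57, limma adjusted p = 5.88e-05). The list was drawn up with earlier results of these arrays known, so its count is not independent evidence of a direction. Without PC-3, HBC4 or MKN74 the count of 63 became 40, 24 or 60.

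Of 10 feedback inhibitors 1 fell, USP18, which removes ISG15 from proteins and blocks the type I receptor (-2.12 ± 0.86, limma adjusted p = 9.07e-04). Without HBC4 it had -1.91 and did not pass (limma adjusted p = 0.0886). PIAS3, an inhibitor of STAT factors, had -0.25 ± 0.10 (limma adjusted p = 0.0549), the phosphatase PTPN11 0.18 ± 0.03 and the phosphatase PTPN1 -0.14 ± 0.17. USP18, IRF7 and IRF9 also belong to the interferon-stimulated list and count in both. FKBP5, the partner reported for both member proteins, had 0.17 ± 0.06 (limma adjusted p = 0.265), and its 3 probe sets ranged from -0.19 to 0.17. Of the 11 genes of FKBP5 and the kinases of IRF3 and NF-kB 0 passed (3 had an unadjusted p under 0.05 in limma), with a median of -0.09. The largest difference among those singled out was that of the NF-kB kinase IKBKB (-0.28 ± 0.15, limma adjusted p = 0.0761), followed by the adaptor TANK (-0.23 ± 0.12) and the IRF3 kinase TBK1 (-0.18 ± 0.04).

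RefSeq lists 0 genes between IFI44L and IFI44, so their nearest measured neighbours were examined on either side. The 5 before IFI44L were spread over 12 genes in RefSeq order, and the 5 after IFI44 over 34. Most genes in these spans were thus not measured. Of 10 such genes 0 passed in G4 minus controls (limma; 1 had an unadjusted p under 0.05). Over all genes 1.77% passed as lower and 0.829% as higher, so a count of 0 in 10 is near the background. Before IFI44L, the prostaglandin receptor PTGFR had -0.10 ± 0.35 on the log2 scale and MGC27382 -0.15 ± 0.13. Farther off, GIPC2 had -0.05 ± 0.12, the co-chaperone DNAJB4 -0.23 ± 0.25 and the DNA-binding protein FUBP1 -0.01 ± 0.21. After IFI44, the adhesion receptor ADGRL4 had -0.03 ± 0.19, ADGRL2 -0.14 ± 0.06, LINC01362 0.03 ± 0.08 and LINC01361 0.01 ± 0.20. The pseudogene COX6A1P1 had 0.32 ± 0.18 (limma adjusted p = 0.0532). The farthest from 0 of these 10 mean differences was thus 0.32. Under other settings COX6A1P1 passed (limma adjusted p = 0.0494 with an intensity trend and 0.0406 with probe sets averaged). Of 16 promoters of these neighbours, 1 (6.25%) held the ISRE core.

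**Figure D5:**
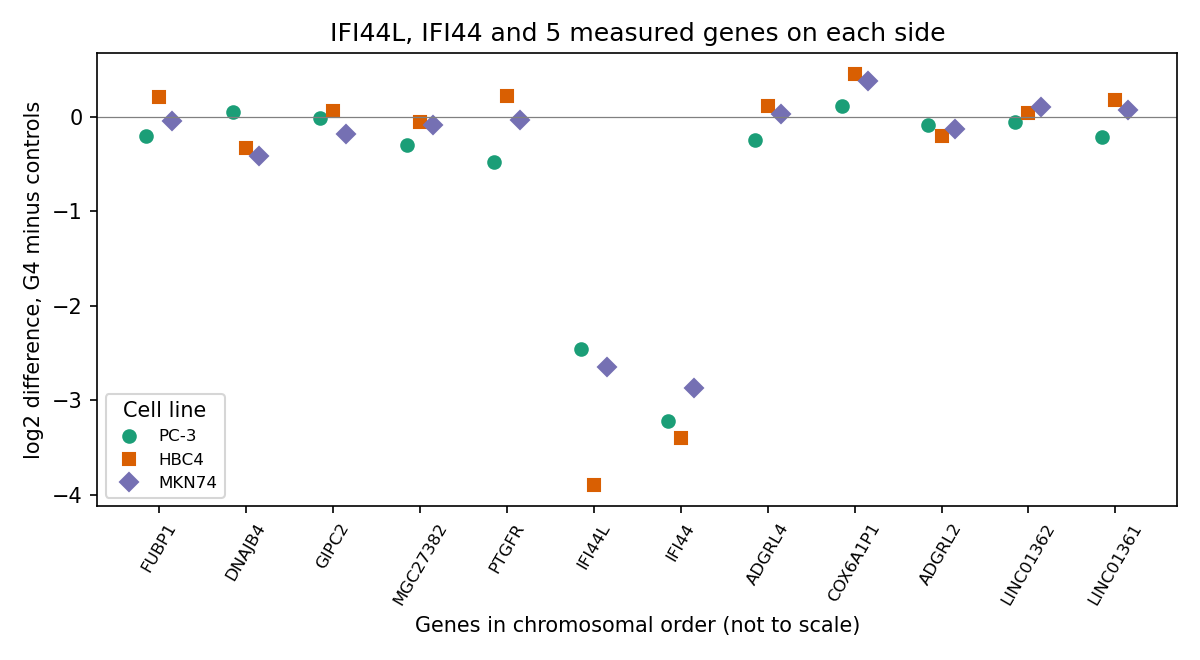
log2 difference, G4 minus controls (vertical axis), of IFI44L, IFI44 (first probe set) and 5 measured genes on each side in chromosomal order (horizontal axis, not to scale), 1 point per cell line. The members lie between -3.90 and -2.45, and the neighbours' line values between -0.48 and 0.46.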

How the data were processed

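Total RNA (100 ng per array) from 12 cultures was measured on Affymetrix arrays. The authors deposited log2 values made with RMA, per the submitters' processing notes; its version is not given in the sources used here. Every probe set's median over the arrays is 0 (tolerance 5e-07), and the centring step is not described there. Base 2 was inferred from the range of the values.

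After 62 control probe sets were left out, limma 3.58.1 (R 4.3.3; lmFit and eBayes, no trend) was run on 54613 probe sets with treatment and line as terms. This left 6 residual degrees of freedom, and p-values were adjusted over all probe sets (Benjamini-Hochberg). No filter on dim probes was possible, since centring removed the level. For other genes, 41091 probe sets naming 1 gene (annotation of 2016) gave 19775 genes, each taken from its probe set most variable between lines, and adjusted over these genes. Line is the block because arrays with the same number are the same line; their deviations from treatment means correlated at 0.920 or more. No label names separate cultures, so p-values measure the spread between these arrays, part of which may be technical, and their number limits precision. The fit was tested on simulated data.

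Genes were named as the 8 most like each member, the 4 of each list with the smallest p, certain regulators, the 5 most even genes, and the neighbours. XAF1, IFI27, DHX58 and the tissue markers were picked with their values in view. Some planned items are not reported here. The members and lists were chosen with earlier results of these data known. Alternatives were quantile normalization, an intensity trend, averaged probe sets, no replicate block, 1 class of arrays, and leaving out arrays or lines.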

Additional observations from a re-analysis of the deposited data

Results flagged for a closer look

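In 4 cases the sign of a difference between 2 treatments of a class was not the same in every line. Each line has 1 array per treatment, so the difference between lines was not tested. For (uuaccc)4 minus the reagent, the highest and lowest line differences were 0.50 apart on the log2 scale for IFI44 by the second probe set (-0.20 in PC-3, 0.30 in MKN74). They were 0.68 apart by the first (-0.18 in PC-3, 0.50 in MKN74) and 0.53 apart for IFI44L (-0.30 in PC-3, 0.23 in HBC4). For (uuaggg)4 minus AS1411, those of IFI44L were 1.17 apart (-0.04 in PC-3, 1.14 in HBC4).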

How the results depend on the processing

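For the member genes, line differences against MKN74 kept their direction and passed under every alternative run, and G4 minus controls kept its direction. With quantile normalization the first IFI44 probe set had -2.75 for G4 minus controls, and the second had -0.067 for PC-3 minus HBC4. With probe sets averaged, IFI44 had 0.0056 for PC-3 minus HBC4. IFI44L had -0.36 for PC-3 minus HBC4 on the 6 control arrays and 1.08 on the 6 G4 arrays. Without 1 array or line, the second IFI44 probe set ranged from -0.32 to 0.20 for (uuaccc)4 minus reagent and from -0.14 to 0.39 for (uuaggg)4 minus AS1411. IFI44L ranged from -0.49 to 0.17 and from -0.067 to 0.81 in the same comparisons, and for PC-3 minus HBC4 from -0.036 to 0.66, the last 2 lowest values being those without the AS1411 array of HBC4.

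Without the replicate block, the paired design was given up: 1 interferon-stimulated gene, 0 ligands, 0 transcription factors and 0 feedback inhibitors fell, against 63, 2, 3 and 1 with it. Without 1 line these counts ranged from 24 to 60, from 0 to 1, from 0 to 2 and from 0 to 1. With an intensity trend 1 neighbour passed, and with probe sets averaged 1 neighbour passed and 2 feedback inhibitors fell. Averaging also gave 0.025 for IFNAR1, 0.070 for PTPN1, -0.016 for FKBP5, 0.011 for GIPC2, 0.0031 for ADGRL2 and -0.030 for LINC01361. Without 1 line, FUBP1 ranged from -0.13 to 0.081, GIPC2 from -0.10 to 0.021, PTGFR from -0.26 to 0.093, ADGRL4 from -0.11 to 0.072, LINC01362 from -0.0074 to 0.069 and LINC01361 from -0.070 to 0.13. The cause of these shifts was not tested. Centred values carry no detection call, so whether a low array lay at background is unknown.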
